A study of Mus musculus with 6 samples.

Results

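The genes described here encode 10 components of the myostatin, activin and TGF-β pathway, the growth factor system best known in muscle for limiting fiber size and for driving fibrosis. They were taken by symbol from the mouse gene rows of a table of counts, in which each of the 10 symbols was found on a single row among 52550 mouse genes. The members are the ligand genes Mstn, Gdf11, Tgfb1 and Tgfb2, the receptor genes Acvr1b, Acvr1c and Acvr2b, the gene of the extracellular antagonist follistatin (Fst), the gene of the inhibitory protein SMAD7 (Smad7), and the target gene Ctgf. RNA came from the quadriceps of male mice at 13 weeks of age, 3 FLExDUX4 mice and 3 wild-type (WT) littermates, and was sequenced with QuantSeq, in which reads start near the poly(A) tail of each mRNA. The methods of the study name another muscle, the triceps, and a younger age for this experiment, so the muscle and age given here are those of the labels. FLExDUX4 mice were hemizygous for an inverted human DUX4 transgene at the Rosa26 locus, carried no Cre and received no inducer, so that any DUX4 came from leaky expression that is not tied to muscle. No row of the table is named DUX4, and the transgene was not analysed here as a check of the genotype labels.

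Each genotype is represented by 1 total, in which the authors summed the counts of its mice. These totals held 13110125 counts on genes for FLExDUX4 and 18367364 for wild-type mice, and 2740 and 3323 of them fell on the 10 members. A ratio of such totals has no replicate check and no p-value, and a single mouse can decide it. The confidence intervals (CI) given below are at 95% (Clopper-Pearson for ratios and shares, exact Poisson for levels) and cover counting error only. Levels are given in CPM, the count as a share of the TMM-scaled library, and because the assay reads 1 end of a transcript, CPM was compared between genes without division by length. The skeletal muscle markers Acta1, Ckm, Myh4, Myh1 and Tnnt3 were all present and summed to 94808 CPM in FLExDUX4 and 95049 CPM in wild-type mice.

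Ligands of this family are dimers that are secreted in a latent form and bind a type II receptor, which then activates a type I receptor, a serine/threonine kinase. The type I receptors ACVR1B, ACVR1C and TGFBR1 phosphorylate SMAD2 and SMAD3, which move to the nucleus with SMAD4, bind DNA at short SMAD sites, and change transcription. Myostatin, made mainly by muscle fibers, signals mainly through ACVR2B with ACVR1B or TGFBR1 and restrains muscle growth. Follistatin traps myostatin and activins outside the cell, SMAD7 blocks type I receptors inside it, and CTGF is a matricellular protein whose gene is a classical TGF-β target in fibrotic tissue.

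Promoter sequences from RefSeq (build GRCm38.p6) were used for 7 of the 10 members, and those of Fst, Smad7 and Ctgf were not used here. Shown here are the bases just upstream of the annotated gene for the ligand and receptor genes on which the comparison turns, 5′ to 3′ on the strand of the gene. Capitals mark the core of a SMAD site, CAGAC, or its reverse complement GTCTG.
Mstn, chr1:53061390-53061639, plus strand: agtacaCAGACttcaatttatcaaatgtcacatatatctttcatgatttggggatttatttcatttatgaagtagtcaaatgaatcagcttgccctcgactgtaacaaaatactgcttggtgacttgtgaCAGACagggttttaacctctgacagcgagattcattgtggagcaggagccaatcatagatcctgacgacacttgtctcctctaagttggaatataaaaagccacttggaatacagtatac
Tgfb2, chr1:186705990-186706239, minus strand: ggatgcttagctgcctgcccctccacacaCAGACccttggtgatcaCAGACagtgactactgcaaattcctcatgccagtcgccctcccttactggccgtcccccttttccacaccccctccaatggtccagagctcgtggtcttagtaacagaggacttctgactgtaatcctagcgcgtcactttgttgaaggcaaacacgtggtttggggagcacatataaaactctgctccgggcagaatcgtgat
Tgfb1, chr7:25686752-25687001, plus strand: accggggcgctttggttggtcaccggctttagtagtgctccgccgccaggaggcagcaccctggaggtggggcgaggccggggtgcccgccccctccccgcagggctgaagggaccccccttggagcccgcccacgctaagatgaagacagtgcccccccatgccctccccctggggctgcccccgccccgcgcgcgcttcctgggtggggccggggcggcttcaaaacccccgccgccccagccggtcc
Acvr1b, chr15:101173822-101174066, plus strand: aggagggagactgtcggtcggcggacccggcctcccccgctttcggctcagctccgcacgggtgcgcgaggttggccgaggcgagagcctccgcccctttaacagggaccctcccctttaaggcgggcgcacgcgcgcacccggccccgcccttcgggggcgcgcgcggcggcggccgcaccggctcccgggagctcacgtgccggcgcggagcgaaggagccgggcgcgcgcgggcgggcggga
Acvr1c, chr2:58357896-58358008, minus strand: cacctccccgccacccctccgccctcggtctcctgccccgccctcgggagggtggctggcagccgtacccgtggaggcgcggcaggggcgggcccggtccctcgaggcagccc
The CAGAC core occurred on either strand in the 250 bases upstream of the RefSeq start in 3 of the 7 members, Mstn, Tgfb2 and Acvr2b, and in 42.19% of 32851 mouse promoters. It was found at 2 places in the Mstn and 2 places in the Tgfb2 sequence above. The Mstn sequence was the poorest in G and C, at 38.4%, against 53.6% for Tgfb2, 75.2% for Tgfb1, 78.8% for Acvr1b and 80.5% for Acvr1c. E-boxes (CANNTG), the sites of myogenic regulators such as MyoD, were found at 4 places in the Mstn sequence. They occurred in 4 of the 7 members, and in 66.22% of all promoters. The FoxO site GTAAACA (3.17% of all promoters), the TEAD site GGAATG (12.64%) and the GC-rich SMAD site GGCGCC (9.59%) were searched on both strands and had no match in the 7 members. A match to so few letters is a description of the window and not a binding site.

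A gene was counted as different between the genotypes when the totals differed at least 1.5-fold and the counting interval of the log2 ratio, FLExDUX4 over wild-type, excluded 0. Of the 10 members, 4 were higher in FLExDUX4 by this rule (Acvr1b, Acvr1c, Smad7 and Ctgf) and 1 was lower (Tgfb1). With spike-in scaling 2 were higher (Acvr1c and Ctgf) and 2 were lower (Tgfb1 and Tgfb2). Over the 13396 genes compared, 9.93% were higher and 10.2% were lower by the same rule, 1330 and 1361 genes, and with spike-in scaling the split was 704 and 2684. Both Acvr1b and Acvr1c are on a list that the study itself drew from these samples, so their direction is not independent evidence. The counting interval alone excluded 0 for 8 of the 10 members and for 41.1% of all genes compared, so it separates few genes from the rest.

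All 10 members passed the filter on low counts, but Tgfb1 passed it through the wild-type total alone. A gene kept in this way is bound to have few counts in FLExDUX4, so the direction of Tgfb1 is no support for a difference. Without Tgfb1, 4 of 9 members were higher and 0 were lower, with a median log2 ratio of 0.185. Among all genes with at least 10 counts in each total, as these 9 have, 8.79% were higher and 6.98% lower. The median log2 ratio was 0.09 over the 10 members and -0.001 over all genes compared. The background depends on depth. Among genes with fewer than 100 counts over both totals, where Acvr1c and Tgfb1 lie, 18.0% were higher and 20.0% lower by the same rule. Among genes with 100 to fewer than 300 counts, the range of Smad7, Fst and Gdf11, it was 13.3% in each direction. Among genes with 300 to fewer than 2000 counts, the range of the other five members, it was 3.37% and 2.42%, and above that range, where 0 members lie, 0.795% and 0.361%. Acvr1b and Ctgf were thus past 1.5-fold in a range of counts where few genes were, and their log2 ratios of 0.78 and 0.97 lay above the 95th percentile of that range, 0.51. Acvr1c, at 2.25, lay above the 95th percentile of its own range, 1.99. Smad7, at 0.75, lay below that of its range, 0.89.

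**Figure D1:**
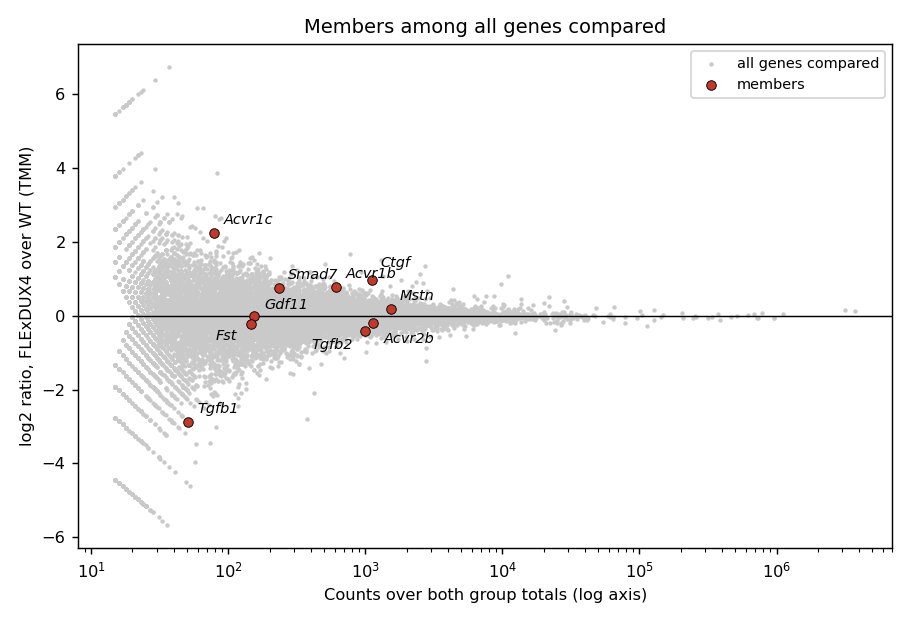
Members of the pathway (red, labelled) among all genes compared (grey), with the counts over both group totals on the log x axis and the log2 ratio of FLExDUX4 over wild-type (TMM scaling) on the y axis. The spread of all genes narrows with depth. Acvr1c and Tgfb1, at 79 and 51 counts, lie where it is wide, and Ctgf, at 1115 counts, lies above most genes of its depth.

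Myostatin was the most abundant of the members in both genotypes. Mstn (ENSMUSG00000026100; chromosome 1 of GRCm38, 53061640 to 53068079, plus strand, protein-coding) had 678 counts in FLExDUX4 and 853 in wild-type mice, levels of 52.3 and 46.0 CPM. Scaled by TMM, the FLExDUX4 total was 1.14 times the wild-type total, a log2 ratio of 0.185 (CI 0.04 to 0.33), and it was -0.09 (CI -0.24 to 0.06) with scaling to the spike-in RNAs, synthetic transcripts added at known amounts. The direction for Mstn was therefore set by the scaling, and a difference of 1.5-fold lay outside both intervals.

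Gdf11 encodes the closest relative of myostatin, which is made in many tissues and patterns the axis of the embryo. Gdf11 (ENSMUSG00000025352; chromosome 10, 128882295 to 128891718, minus strand) had 63 counts against 91, or 4.86 and 4.90 CPM. The log2 ratio was -0.01 (CI -0.50 to 0.47), which leaves room for any fold between 0.71 and 1.38. Mstn made up 91.5% of the counts of these paralogs in FLExDUX4 and 90.4% in wild-type mice. The ratio of Mstn to Gdf11, which does not depend on any scaling, was 10.8 and 9.37, and differed 1.15-fold (CI 0.81 to 1.64).

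Of the TGF-β ligand genes, Tgfb1 was lower in FLExDUX4 mice by the 1.5-fold rule, on very few counts, and Tgfb2 was not past it. Tgfb1 (ENSMUSG00000002603; chromosome 7, 25687002 to 25705077, plus strand) had 4 counts in FLExDUX4 and 47 in wild-type mice, levels of 0.308 and 2.53 CPM. Its log2 ratio was -2.88 (CI -4.97 to -1.59). Tgfb1 is made by leukocytes and platelets as well as by resident cells. Of 6 macrophage and leukocyte markers 0 were higher and 1 was lower by the 1.5-fold rule, and 3 were lower with spike-in scaling. Their TMM log2 ratios ran from -0.83 (Cd14) to 0.43 (Ptprc), with 4 below 0 and a median of -0.33, and they summed to 65.4 CPM in FLExDUX4 and 68.0 CPM in wild-type mice. Of the 3 platelet markers, Ppbp had 0 counts in FLExDUX4, which does not show that it was absent, and 4 in wild-type mice. The 3 together summed to 17.2 and 21.7 CPM. Ppbp had too few counts to be compared, and neither Pf4 nor Itga2b was past the rule under TMM scaling. With spike-in scaling 1 of them, Pf4, was lower. The part of leukocytes and platelets in the Tgfb1 difference was not tested. In bulk muscle, fewer cells that make a transcript and less of it per cell cannot be told apart.

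Tgfb2 encodes the isoform most abundant in this muscle. Tgfb2 (ENSMUSG00000039239; chromosome 1, 186622792 to 186705989, minus strand) had 343 counts in FLExDUX4 and 656 in wild-type mice, levels of 26.4 and 35.4 CPM. The log2 ratio was -0.42 (CI -0.61 to -0.23), and -0.69 (CI -0.89 to -0.50) with spike-in scaling. Tgfb3, the third isoform and not a member, had 216 and 390 counts and a ratio of -0.34 (CI -0.58 to -0.09). With spike-in scaling it was -0.61, past 1.5-fold. Summed, the isoforms had 563 counts against 1093, a log2 ratio of -0.44 (CI -0.59 to -0.29), or -0.72 with spike-in scaling. The make-up of the sum was close to the same for the main isoforms. Tgfb2 took 60.9% of it in FLExDUX4 (CI 56.8 to 65.0) and 60.0% in wild-type mice (CI 57.0 to 62.9), and Tgfb3 took 38.4% (CI 34.3 to 42.5) and 35.7% (CI 32.8 to 38.6).

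**Figure D2:**
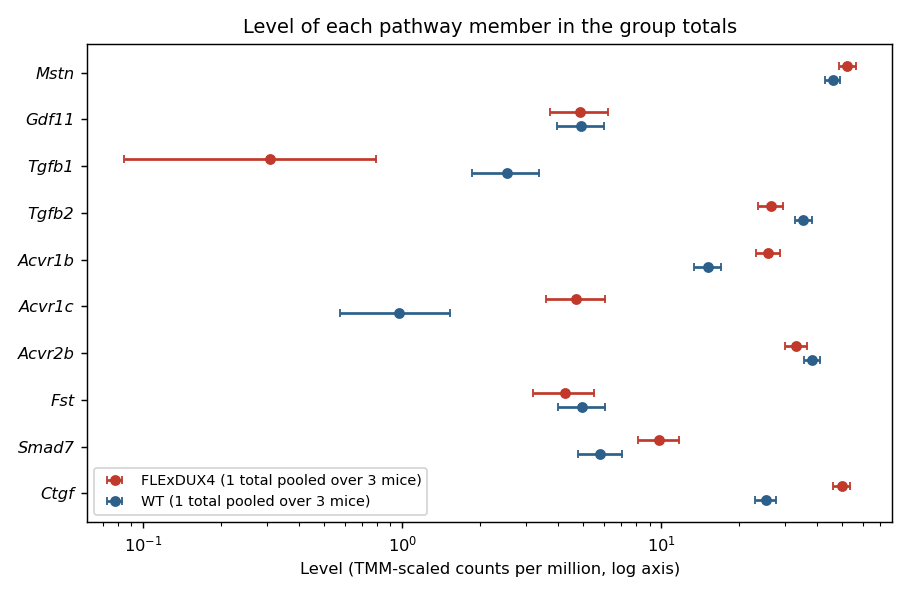
Level of each member in the totals of FLExDUX4 (red) and wild-type mice (blue), in TMM-scaled CPM on a log axis, with exact 95% Poisson intervals that cover counting error only. Each point is 1 total pooled over 3 mice. Acvr1b, Acvr1c, Smad7 and Ctgf are higher and Tgfb1 and Tgfb2 lower in FLExDUX4 with no overlap of these intervals. Those of Mstn, Gdf11, Acvr2b and Fst overlap. The share of all genes with no overlap was not computed, and the counting interval of the log2 ratio excluded 0 for 41.1% of all genes compared. Tgfb1 passed the filter on low counts through the wild-type total alone.

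Both activin type I receptor genes were higher in FLExDUX4 mice, and the type II receptor gene was not. Acvr1b encodes ALK4, the main type I receptor for activins and, in muscle, for myostatin. Acvr1b (ENSMUSG00000000532; chromosome 15, 101174067 to 101213684, plus strand) had 335 counts in FLExDUX4 and 280 in wild-type mice, although the FLExDUX4 library was the smaller, or 25.8 and 15.1 CPM. The totals differed 1.71-fold, a log2 ratio of 0.78 (CI 0.54 to 1.01), or 0.50 (CI 0.27 to 0.73) with spike-in scaling, which is under 1.5-fold.

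Acvr1c encodes ALK7, a receptor for activin B and GDF3 that is known mainly from fat. Acvr1c (ENSMUSG00000026834; chromosome 2, 58267453 to 58357895, minus strand) had 61 counts in FLExDUX4 and 18 in wild-type mice, levels of 4.70 and 0.970 CPM, a 4.75-fold difference. Its log2 ratio of 2.25 (CI 1.499 to 3.12) was higher than those of 98.9% of the genes compared, and was 1.97 with spike-in scaling. Of 6 adipocyte markers, 3 were higher by the 1.5-fold rule (Adipoq, Cfd and Retn) and 0 were lower, against 1 (Cfd) and 1 (Lep) with spike-in scaling. Their TMM log2 ratios ran from -0.82 (Lep) to 0.88 (Cfd), with 5 above 0, and the 6 summed to 163.5 CPM in FLExDUX4 and 98.0 CPM in wild-type mice. None was at 0. Their part in the Acvr1c difference was not tested.

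Acvr2b encodes the type II receptor that binds myostatin with high affinity. Acvr2b (ENSMUSG00000061393; chromosome 9, 119402118 to 119434995, plus strand) had 429 counts in FLExDUX4 and 708 in wild-type mice, levels of 33.1 and 38.2 CPM. The log2 ratio was -0.21 (CI -0.38 to -0.03), and -0.48 (CI -0.66 to -0.31) with spike-in scaling. Gm47320, an antisense gene that overlaps Acvr2b, had 58 and 76 counts, and the strand setting of the counting is not given in the sources used here. Wild-type muscle held 0.396 reads of Acvr1b for each read of Acvr2b, and FLExDUX4 muscle held 0.781. This type I to type II ratio was 1.97 times as high in FLExDUX4 (CI 1.61 to 2.42), whatever the scaling.

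The receptors were also summed by class. Acvr1b, Acvr1c and Tgfbr1, the type I receptors that act on SMAD2 and SMAD3, had 567 counts together in FLExDUX4 and 504 in wild-type mice, giving a log2 ratio of 0.69 (CI 0.51 to 0.86). Within this sum the share of Acvr1c was 10.8% in FLExDUX4 (CI 8.33 to 13.6) and 3.57% in wild-type mice (CI 2.13 to 5.59). The share of Acvr1b was 59.1% (CI 54.9 to 63.2) and 55.6% (CI 51.1 to 60.0). Acvr2a and Acvr2b, the activin type II receptors, summed to 557 counts and 876, a ratio of -0.14 (CI -0.29 to 0.02). The counts of the type I class were thus higher and those of the type II class not distinguishable at this depth under TMM scaling. With spike-in scaling the ratios were 0.41 and -0.41.

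**Figure D3:**
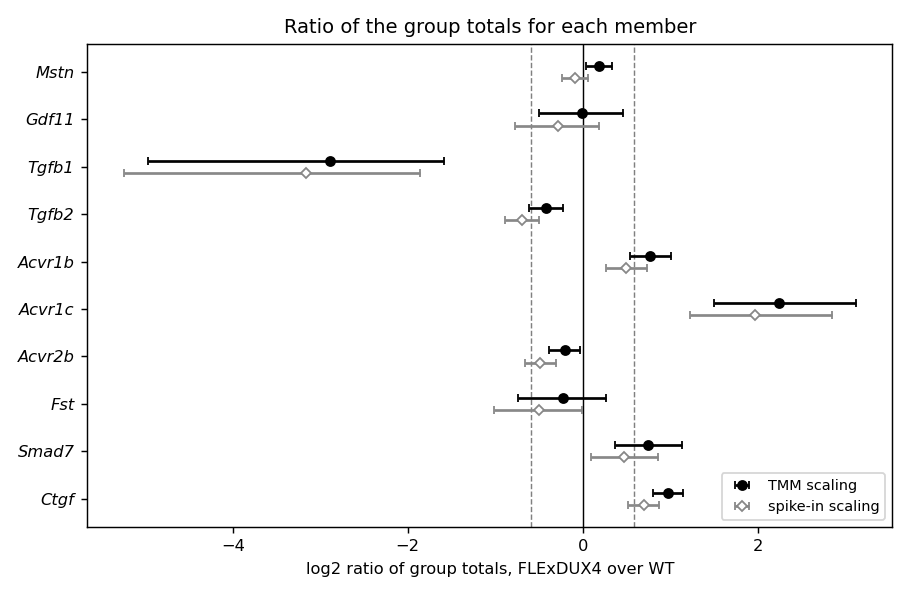
The log2 ratio of the group totals, FLExDUX4 over wild-type, for each member with its 95% counting interval, under TMM scaling (black circles) and under scaling to the spike-in totals (grey diamonds). Dashed lines mark 1.5-fold. Acvr1c and Ctgf are past the upper line and Tgfb1 past the lower line under both scalings. Acvr1b and Smad7 are past the upper line under TMM alone, Tgfb2 is past the lower line under spike-in scaling alone, and Mstn changes sign.

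Of the genes for inhibitors of the pathway, Smad7 was higher in FLExDUX4 by the 1.5-fold rule and Fst did not pass it. Fst (ENSMUSG00000021765; chromosome 13) had 55 counts in FLExDUX4 and 92 in wild-type mice, levels of 4.24 and 4.96 CPM. Its log2 ratio was -0.22 (CI -0.74 to 0.27), so a difference in either direction was not detectable at this depth under TMM scaling. With spike-in scaling it was -0.497 (CI -1.01 to -0.004), which is under 1.5-fold. Follistatin transcripts were about as rare as those of Gdf11 in both genotypes. There were 12.3 reads of Mstn for each read of Fst in FLExDUX4 and 9.27 in wild-type mice, which differed 1.33-fold (CI 0.93 to 1.92).

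Smad7 encodes an inhibitory SMAD whose gene is switched on by the pathway it blocks. Smad7 (ENSMUSG00000025880; chromosome 18) had 127 counts in FLExDUX4 and 108 in wild-type mice, levels of 9.79 and 5.82 CPM. This was a 1.68-fold difference, with a log2 ratio of 0.75 (CI 0.37 to 1.13), or 0.47 (CI 0.09 to 0.86) with spike-in scaling. Its relative Smad6, which acts mainly on BMP receptors, did not pass the rule under TMM scaling. It had 24 counts against 56, a log2 ratio of -0.69 (CI -1.46 to 0.01). With spike-in scaling the ratio of Smad6 was -0.965, lower by the rule. The ratio of Smad7 to Smad6 was 5.29 in FLExDUX4 and 1.93 in wild-type mice, a 2.73-fold difference (CI 1.55 to 4.94).

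The target gene Ctgf had the largest difference among the members with more than 100 counts over both totals. Ctgf (ENSMUSG00000019997; chromosome 10, 24595442 to 24598683, plus strand, also named Ccn2) had 645 counts in FLExDUX4 and 470 in wild-type mice, levels of 49.7 and 25.3 CPM. The totals differed 1.96-fold, a log2 ratio of 0.97 (CI 0.80 to 1.15), or 0.70 (CI 0.52 to 0.87) with spike-in scaling. Ctgf was the fourth most abundant member in wild-type muscle and the second in FLExDUX4 muscle, where its interval overlapped that of Mstn. Cells of vessels and connective tissue make much of the CTGF in muscle. Of 5 endothelial markers and 6 fibroblast markers, 0 were higher and 0 lower by the 1.5-fold rule, but with spike-in scaling 2 endothelial markers, Kdr and Emcn, were lower. Their TMM log2 ratios ran from -0.56 (Kdr) to 0.36 (Tie1) in the first list, with 3 of 5 below 0, and from -0.31 (Cd34) to 0.32 (Pi16) in the second, with 3 of 6 below 0. The summed levels were 163.4 and 185.5 CPM for the first list and 866 and 857 CPM for the second. Smooth muscle and pericyte markers (3 genes, 0 past 1.5-fold) summed to 285.6 and 273.7 CPM. The part of these cells in the Ctgf difference was not tested.

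Cyr61, the CCN family gene closest to Ctgf and often induced with it, went the other way. Cyr61 had 169 counts in FLExDUX4 and 374 in wild-type mice, giving a log2 ratio of -0.63 (CI -0.90 to -0.36). There were 3.82 reads of Ctgf for each read of Cyr61 in FLExDUX4 and 1.26 in wild-type mice, a 3.03-fold difference (CI 2.43 to 3.798). Of the other genes of this family, Nov was higher (log2 ratio 0.89, interval 0.34 to 1.45, from 66 and 51 counts), and neither Wisp1 nor Wisp2 was past 1.5-fold with an interval that excluded 0.

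**Figure D4:**
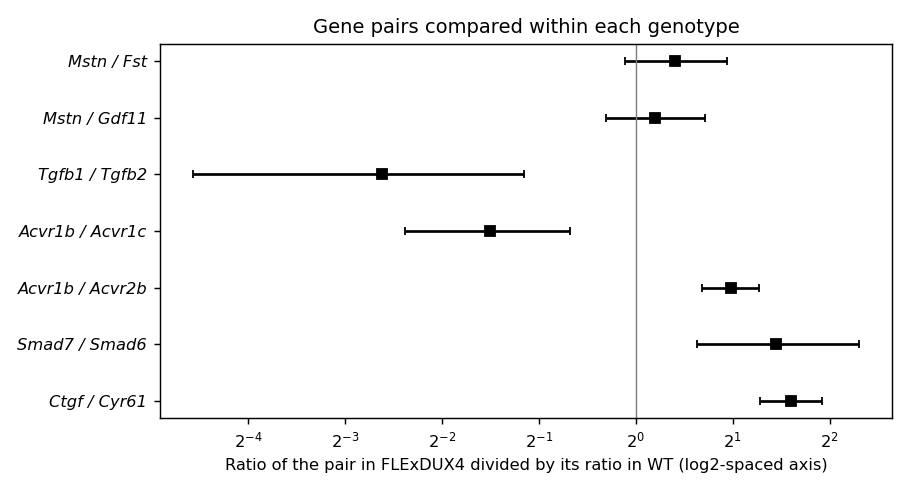
For 7 pairs of related genes, the ratio of the pair in FLExDUX4 divided by its ratio in wild-type mice, on an axis spaced by log2, with exact conditional 95% intervals that cover counting error only. The vertical line marks 1, no difference. Mstn to Fst and Mstn to Gdf11 have intervals that hold 1, and the other pairs have intervals that do not. The pairs were chosen with earlier results of these data known, and no share over other gene pairs was computed. The pair Tgfb1 to Tgfb2 rests on 4 counts of Tgfb1 in FLExDUX4. Tgfb1 passed the filter on low counts through the wild-type total alone, so this pair is not support.

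The order of the members by level was compared within each genotype. In wild-type muscle it ran from Mstn, Acvr2b, Tgfb2 and Ctgf through Acvr1b, Smad7, Fst, Gdf11 and Tgfb1 to Acvr1c. The neighbours Acvr2b and Tgfb2, Smad7 and Fst, and Fst and Gdf11 had overlapping intervals. In FLExDUX4 muscle the order was Mstn, Ctgf, Acvr2b, Tgfb2, Acvr1b, Smad7, Gdf11, Acvr1c, Fst and Tgfb1. There Mstn and Ctgf, Tgfb2 and Acvr1b, Gdf11 and Acvr1c, and Acvr1c and Fst overlapped. Acvr1b stood apart below Tgfb2 and Ctgf in wild-type muscle (15.1 against 35.4 and 25.3 CPM) and was level with Tgfb2 in FLExDUX4 muscle (25.8 against 26.4 CPM).

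The rest of the pathway was read from a list of 95 genes grouped by role, of which 83 had enough counts to be compared. Of these, 6 were higher (7.23%) and 7 were lower (8.43%) in FLExDUX4 by the 1.5-fold rule, against 9.93% and 10.2% of all genes compared, and their median log2 ratio was 0.08, against -0.001. These shares are near the background. With spike-in scaling the numbers were 3 and 12.

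Among 8 ligand genes compared, 0 were higher and 1 was lower under TMM scaling, and 0 and 3 with spike-in scaling. The lower gene under TMM scaling was Gdf10, which encodes BMP3B. It had 22 counts against 69 and a log2 ratio of -1.11 (CI -1.90 to -0.42). Bmp2 had 85 and 112 counts and a ratio of 0.12 (CI -0.31 to 0.54). Bmp6, with as many counts as Bmp2 over both totals, had 66 and 131 and a ratio of -0.47 (CI -0.92 to -0.04), which was -0.74 with spike-in scaling and past 1.5-fold there.

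Of the 5 other type I receptor genes, Acvrl1, which encodes the endothelial receptor ALK1, was higher, with 166 counts against 140 and a ratio of 0.76 (CI 0.43 to 1.10), which was 0.49 with spike-in scaling, under 1.5-fold. Bmpr1b was lower, with 42 counts against 93 and a ratio of -0.62 (CI -1.19 to -0.09). Acvr1, which encodes the BMP receptor ALK2, had a ratio of 0.28 (CI 0.03 to 0.54). The most abundant of them, the BMP receptor gene Bmpr1a, had a ratio of 0.15 (CI 0.02 to 0.28), which was -0.12 with spike-in scaling. Of 4 type II receptor genes 0 passed the rule, and Bmpr2 and Tgfbr2 had ratios of -0.26 and 0.30. Among 6 co-receptor and decoy genes 0 passed it. Hfe2, which encodes the BMP co-receptor hemojuvelin, had by far the most counts of these, 4665 against 7158, with a ratio of -0.10 (CI -0.16 to -0.05), and Rgma had a ratio of -0.22.

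Among 8 extracellular antagonists, the myostatin-binding proteins differed in direction. Fstl3, which encodes a relative of follistatin, had 65 counts in FLExDUX4 and 25 in wild-type mice and the highest ratio of the list, 1.88 (CI 1.21 to 2.62). Wfikkn2, which encodes GASP-1, a binder of myostatin and GDF11, had 54 counts against 172 and the lowest, -1.15 (CI -1.62 to -0.71). Fstl1 had a ratio of 0.48 (CI 0.37 to 0.58). Decorin (Dcn), a proteoglycan that binds TGF-β and myostatin, had 9583 and 13359 counts and a ratio of 0.04 (CI -0.001 to 0.08), which was -0.24 with spike-in scaling.

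Of 9 genes for latency and release, 1 was lower. This was Lrrc32, which encodes GARP, an anchor of latent TGF-β1, with 54 counts against 125 and a ratio of -0.69 (CI -1.18 to -0.22). Ltbp4, a latent TGF-β binding protein, and Furin, the protease that cuts the precursors, had ratios of -0.03 and -0.09. Of the 6 Smad genes compared 0 passed the rule under TMM scaling, and 1, Smad6, was lower with spike-in scaling. Smad3 and Smad4 had the most counts, with ratios of -0.18 (CI -0.29 to -0.07) and 0.07 (CI -0.07 to 0.21), and the latter was -0.21 with spike-in scaling.

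Among 10 intracellular regulators, Smurf1, a ubiquitin ligase for receptors and Smads, was lower, with 107 counts against 242 and a ratio of -0.66 (CI -1.003 to -0.33). Tgif1, which encodes a corepressor of SMAD2, lay at the 1.5-fold limit, with a ratio of 0.58 (CI 0.06 to 1.12), which was 0.31 with spike-in scaling. Ppm1a and Zfyve9, a phosphatase of SMADs and an anchor of them, had ratios of 0.16 and 0.02 that were -0.11 and -0.26 with spike-in scaling.

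Of 14 genes that respond to TGF-β, 1 was higher and 1 was lower by the rule, and 0 and 1 with spike-in scaling. The lower gene was Junb, which encodes a subunit of the transcription factor AP-1, with 83 counts against 202 and a ratio of -0.76 (CI -1.15 to -0.39). The collagen genes Col1a1 and Col1a2 had ratios of 0.53 and 0.33, both under 1.5-fold, which were 0.26 and 0.05 with spike-in scaling. Among 5 BMP target genes 0 passed the rule under TMM scaling. Id1 and Id3 had ratios of 0.32 (CI 0.11 to 0.53) and 0.37 (CI 0.18 to 0.55). With spike-in scaling these were 0.04 and 0.09, and 1 BMP target gene, Smad6, was lower by the rule. Of 5 genes for muscle growth, Myog, which encodes myogenin, was higher, with 50 counts against 32 and a ratio of 1.15 (CI 0.49 to 1.85). The atrophy ligase genes Fbxo32 and Trim63 had ratios of -0.03 (CI -0.08 to 0.02) and 0.37 (CI 0.29 to 0.45). With spike-in scaling these were -0.31 and 0.10.

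**Figure D5:**
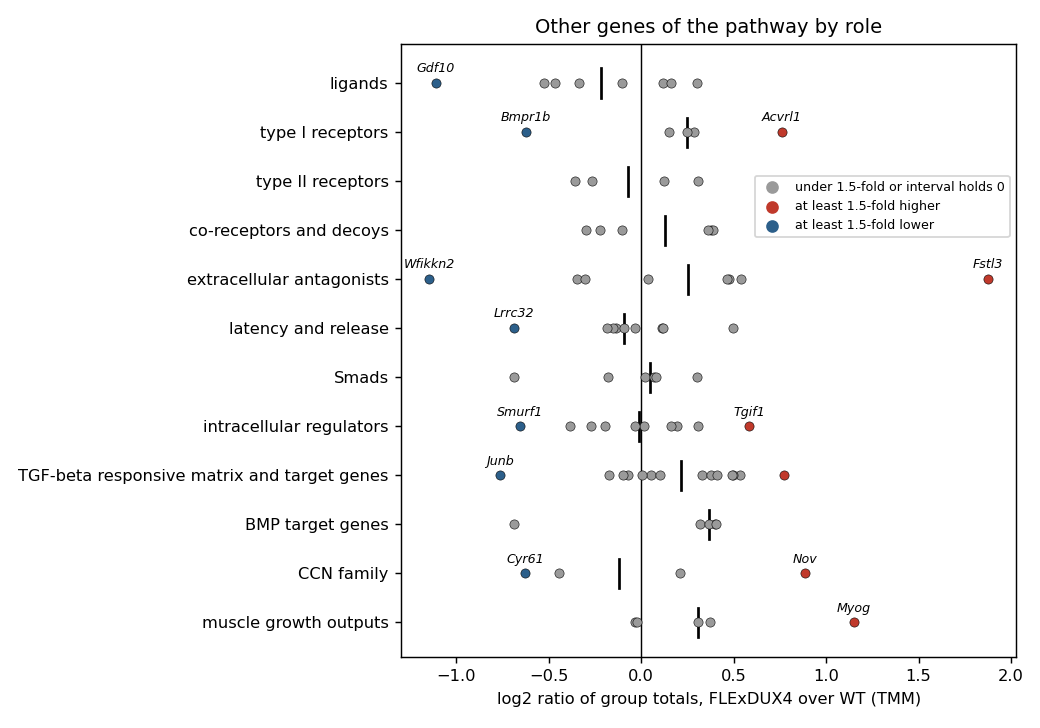
Log2 ratio of the group totals, FLExDUX4 over wild-type (TMM scaling), for the 83 other pathway genes compared, one row for each role. Red points are at least 1.5-fold higher and blue points at least 1.5-fold lower with a counting interval that excludes 0, grey points are the rest, and black bars are the medians. Smad6 is plotted in both the Smad and the BMP target row. Higher and lower genes occur side by side in several roles, and Fstl3 and Wfikkn2, both antagonists, lie at the ends of the range.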

How the data were processed

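RNA from 3 FLExDUX4 and 3 wild-type mice was sequenced by QuantSeq. After trimming with Cutadapt 1.16, reads were mapped by the authors with STAR 2.5.3a to GRCm38 plus ERCC and SIRV spike-in sequences. The deposited values are raw counts, summed by the authors over each genotype. The submitters' processing notes also list featureCounts 1.6.2 and the build GRCh38. The table also holds the authors' DESeq2 comparison (mean, log2 fold change with its standard error, test statistic, p-value and adjusted p-value), which was not used, and 6 columns of per-sample values under names that fit no label, which were left out of every step. For this reason no test across mice was run.

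The group totals were scaled with TMM (edgeR 4.0.16, R 4.3.3) over 13396 genes kept by filterByExpr, with a pseudocount of 0.5 in log2 ratios. Spike-ins (1.65% and 1.40% of counts) were left out of the totals. Intervals were computed with scipy 1.17.1 in Python 3.11.15 at 95%, and the scripts were tested on simulated data. The members, pathway list, count ranges and pairs were chosen with earlier results of these data known. Named genes are the members and, for each role in the pathway list, genes past 1.5-fold with an interval that excludes 0 and the 2 genes with the most counts. Single marker genes were named after their values were seen, and 1 pathway gene that meets the rule is not reported here by name. Coordinates are from GENCODE M21 on GRCm38, printed where the start equals the deposited one, except for Smad7, whose position is given by chromosome alone. Alternatives were other scalings, filters, pseudocounts and folds.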

Additional observations from a re-analysis of the deposited data

How the results depend on the processing

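No paired analysis was possible because the columns used, 1 pooled total for each genotype, carry no replicate numbers. Tests over mice with edgeR or DESeq2 and fits without each replicate were not run, since the per-sample columns were left out. RLE, upper quartile and gene totals in place of TMM, no filter, and a pseudocount of 2 left each member's log2 ratio within its counting interval and the 4 counts of higher or lower members and pathway genes within 1.5 times. Spike-in totals shifted every log2 ratio by -0.28 and the median of all genes to -0.277. This took Mstn to -0.091, Tgfb2 to -0.69, Acvr1b to 0.50, Acvr2b to -0.48 and Ctgf to 0.70, outside their intervals under TMM. The cause of that shift was not tested. By the 1.5-fold rule, 4 members were higher and 1 was lower under TMM, 2 and 2 with spike-in totals. The number of lower members was 0 where at least 10 counts were asked of each total, which drops Tgfb1. At 2-fold, 1 member and 2 pathway genes were higher, and 2 pathway genes were lower. With spike-in totals, 3 pathway genes were higher and 12 were lower. Depth limits the interval of Tgfb1, Acvr1c, Fst and Gdf11 most, with widths of 3.39, 1.62, 1.01 and 0.97 on the log2 scale, against 0.295 for Mstn.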

Other observations

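Markers of other cells in the muscle were read in the same totals, by the same 1.5-fold rule, with 95% counting intervals (CI). Among satellite cell markers, Pax7, the transcription factor of quiescent muscle stem cells, had 35 counts in FLExDUX4 and 89 in wild-type mice, giving a log2 ratio of -0.82 (CI -1.44 to -0.25), and the list summed to 13.2 and 15.0 CPM. Cdh15 had a ratio of -0.02 and Myf5 of 0.34, neither past the rule. Among 3 tendon markers, Scx was lower, with 53 counts against 154 and a ratio of -1.01 (CI -1.501 to -0.56), and Mkx was higher, with 23 counts against 14 and a ratio of 1.21 (CI 0.21 to 2.30). With spike-in scaling Scx was lower and 0 tendon markers were higher. The third, Tnmd, had a ratio of 0.37.

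Of 3 Schwann cell markers 0 passed the rule, and with spike-in scaling 1, Sox10, was lower. They summed to 56.6 CPM in FLExDUX4 and 58.7 CPM in wild-type mice. The 3 red blood cell markers were all under 1.5-fold and summed to 989 and 785 CPM. Of the 6 macrophage and leukocyte markers, the lower one was Cd14, with 21 counts against 54 and a ratio of -0.83 (CI -1.65 to -0.10). These values are ratios of single pooled totals and have no replicate check.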
